A study of Mus musculus with 4 samples.

Results

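The corticosteroid response, represented by 9 genes, was followed across the cell types of the mouse cerebral cortex, in control animals and in animals without the creatine transporter. The genes were chosen by symbol from the 21933 genes of the count matrices: the glucocorticoid receptor Nr3c1, the mineralocorticoid receptor Nr3c2, and the glucocorticoid-responsive genes Fkbp5, Tsc22d3, Sgk1, Zbtb16, Errfi1, Cdkn1a and Ddit4. All 9 were present in all 4 matrices. The list was chosen from earlier results of these same data, so the genotype values of the 9 genes are given as a description, with the share of all genes called in the same comparison beside each count.

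Single-nucleus RNA sequencing (snRNA-seq) was performed on nuclei of the right cerebral cortex of untreated male mice at postnatal day 100, with 1 library per animal. The control group (n = 2) consisted of CrT+/y littermates, and the CrT-KO group (n = 2) of CrT-/y mice, which carry a hemizygous deletion within Slc6a8, the X-linked gene of the creatine transporter, in every cell of the body on a C57Bl/6J background. All animals were killed in the light phase, and hormone levels were not among the data analysed here. The libraries held 8282 to 9295 nuclei and 51507483 to 65240843 unique molecular identifiers (UMIs, one per captured RNA molecule), with a median of 5548 to 6701 UMIs per nucleus. Between 12 and 19 cell barcodes were shared by any pair of libraries. After 1213 of 35694 nuclei had been set aside as doublets, 30780 were assigned to 7 populations by marker genes, namely 13609 excitatory neurons, 8628 inhibitory neurons, 4965 oligodendrocytes, 2232 microglia, 661 oligodendrocyte precursor cells (OPCs), 493 astrocytes and 192 endothelial cells or pericytes. These names mean "like" that cell type, since they rest on clusters rebuilt from the matrices, and 3701 nuclei stayed unnamed. Among the unnamed, clusters of 1858 and 1250 nuclei scored best as excitatory neurons but were led by markers of another class. The top genes of the larger include Deptor and Hsd11b1, listed here as markers of layer 5 intratelencephalic neurons. The excitatory levels and subclasses below leave both clusters out. Over all named nuclei Slc6a8 had 283 and 286 UMIs in control animals against 82 and 67 in CrT-KO animals, in the direction of the labels, although a UMI does not say whether it lies inside the deleted segment.

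Corticosterone crosses the cell membrane and binds either receptor in the cytoplasm, where chaperones of the Hsp90 and Hsp70 families hold the receptor ready for the hormone. The mineralocorticoid receptor has the higher affinity, whereas the glucocorticoid receptor is filled mainly at the daily peak or under stress. The receptor then enters the nucleus and binds a palindromic DNA element. Among the genes it switches on, Fkbp5 encodes a co-chaperone that lowers receptor affinity and so closes a feedback loop, Tsc22d3 encodes the anti-inflammatory leucine zipper protein GILZ, and Sgk1 encodes a kinase that acts on ion channels and transporters. Zbtb16 encodes the zinc finger transcription factor PLZF, Errfi1 an inhibitor of the EGF receptor, Cdkn1a the cell cycle inhibitor p21, and Ddit4 an inhibitor of mTORC1 signalling.

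The promoter windows of these genes, taken from RefSeq on GRCm38.p6, are shown for 3 of them because they differ in the letters of the receptor element. The hexamer of that element, AGAACA or TGTTCT on the other strand, was searched on both strands. A full element was counted where AGAACA was followed after 3 bases of any kind by TGTTCT, so that each full element also holds 2 hexamers. The 250 bases before the transcription start are printed 5′ to 3′ on the strand of the gene, with hexamers in capitals, for Fkbp5 at chr17:28486150-28486399 (minus strand), Sgk1 at chr10:21993640-21993889 (plus strand) and Tsc22d3 at chrX:140600523-140600772 (minus strand).
Fkbp5: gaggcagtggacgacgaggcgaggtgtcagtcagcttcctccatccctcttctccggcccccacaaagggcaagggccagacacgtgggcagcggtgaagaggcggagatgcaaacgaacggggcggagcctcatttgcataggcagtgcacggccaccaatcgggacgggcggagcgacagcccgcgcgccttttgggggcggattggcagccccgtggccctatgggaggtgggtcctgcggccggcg
Sgk1: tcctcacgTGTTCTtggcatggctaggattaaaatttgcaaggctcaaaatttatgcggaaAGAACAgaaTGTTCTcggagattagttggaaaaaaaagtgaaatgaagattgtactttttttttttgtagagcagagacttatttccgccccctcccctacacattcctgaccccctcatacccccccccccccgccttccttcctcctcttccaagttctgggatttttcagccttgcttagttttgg
Tsc22d3: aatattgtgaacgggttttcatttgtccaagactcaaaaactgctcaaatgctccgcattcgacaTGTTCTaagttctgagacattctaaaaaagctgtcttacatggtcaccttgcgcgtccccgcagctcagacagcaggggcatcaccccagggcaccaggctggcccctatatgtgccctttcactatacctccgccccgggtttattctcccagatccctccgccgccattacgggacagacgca
For Sgk1 and Tsc22d3 the window with the most matches is shown, out of 6 and 3 windows, of which 3 and 1 hold a hexamer. The Sgk1 window holds a full element that begins 189 bases before the start, plus a further hexamer at 242 bases. The Tsc22d3 window holds 1 hexamer, 185 bases before the start, and the Fkbp5 window holds none. Windows of 300 bases were searched for 7 of the 9 genes, 16 windows in all, and none for Zbtb16 and Nr3c1. A hexamer lay in 4 of these 16 windows (25.0%) and in 6233 of all 32851 promoter windows (19.0%). A full element lay in 1 of the 16 and in 3 of the 32851 (0.00913%). These matches describe letters in a short window and not bound sites, and enhancers and introns were not searched.

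Levels are given in CPM, the UMIs of a gene relative to all UMIs of that population in that library on the usual CPM scale. The spread is given as the range over the 4 libraries, or as the SD over the 2 libraries of a genotype. Nuclear transcripts were counted over the whole gene body, so long genes collect more UMIs. The annotated span ran from 2.17 kb for Ddit4 to 345.6 kb for Nr3c2, and per kb of span Zbtb16 had the highest level over all named nuclei (1.89 CPM per kb), ahead of Nr3c1 and Sgk1 (1.39 each), Errfi1 (1.14), Fkbp5 (1.11) and Nr3c2 (0.783). Zbtb16 (ENSMUSG00000066687) lies at chr9:48654297-48836222 on the minus strand of GRCm38 with 2.90% of its span exonic, and Fkbp5 (ENSMUSG00000024222) at chr17:28399094-28517527 on the minus strand with 7.99% exonic. Fkbp5, Nr3c2, Cdkn1a and Errfi1 overlap other annotated genes, among them antisense transcripts of Fkbp5 and Errfi1. None of these neighbours is a row of the matrices, and whether counting used the strand is not given in the sources used here.

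The receptors were detected in every population, with different peaks. Nr3c1 was highest in microglia, with a mean of 333 CPM over the 4 libraries (range 263 to 393), and lowest in inhibitory neurons, with 91.7 CPM (85.2 to 96.7). Between these, endothelial cells and pericytes (269 CPM), oligodendrocytes (223), astrocytes (189), OPCs (172) and excitatory neurons (171) each overlapped their neighbour in the order, so that only the step down to inhibitory neurons separated the libraries of neighbouring populations. Nr3c2 had another order. It was highest in astrocytes (591 CPM, range 455 to 657), which overlapped endothelial cells and pericytes (461) and inhibitory neurons (405), and no library of these inhibitory neurons overlapped the next population, microglia (303). OPCs (232), oligodendrocytes (225) and excitatory neurons (209) followed and overlapped. Inhibitory neurons were thus the lowest population for one receptor and among the 3 highest for the other.

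Within neurons the receptors separated the subclasses further. Nr3c2 peaked in VIP interneurons (892 CPM, range 787 to 1008), clear of LAMP5 interneurons (465), layer 5 extratelencephalic neurons (453) and medium spiny neurons (433), which overlapped one another. PV interneurons (314 CPM) came next without overlap on either side, and layer 6b neurons were lowest (82.0). Nr3c1 peaked in layer 6 corticothalamic neurons (255 CPM, range 244 to 270) without overlap with layer 6b (204), and then fell off gradually through overlapping subclasses to PV interneurons (76.5). Layer 6b neurons therefore ranked second for Nr3c1 and last for Nr3c2. Medium spiny neurons belong to the striatum, and their 2339 nuclei in a cortical dissection are named from markers only. They are counted among the 8628 inhibitory neurons, so each level of that population includes them.

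**Figure D1:**
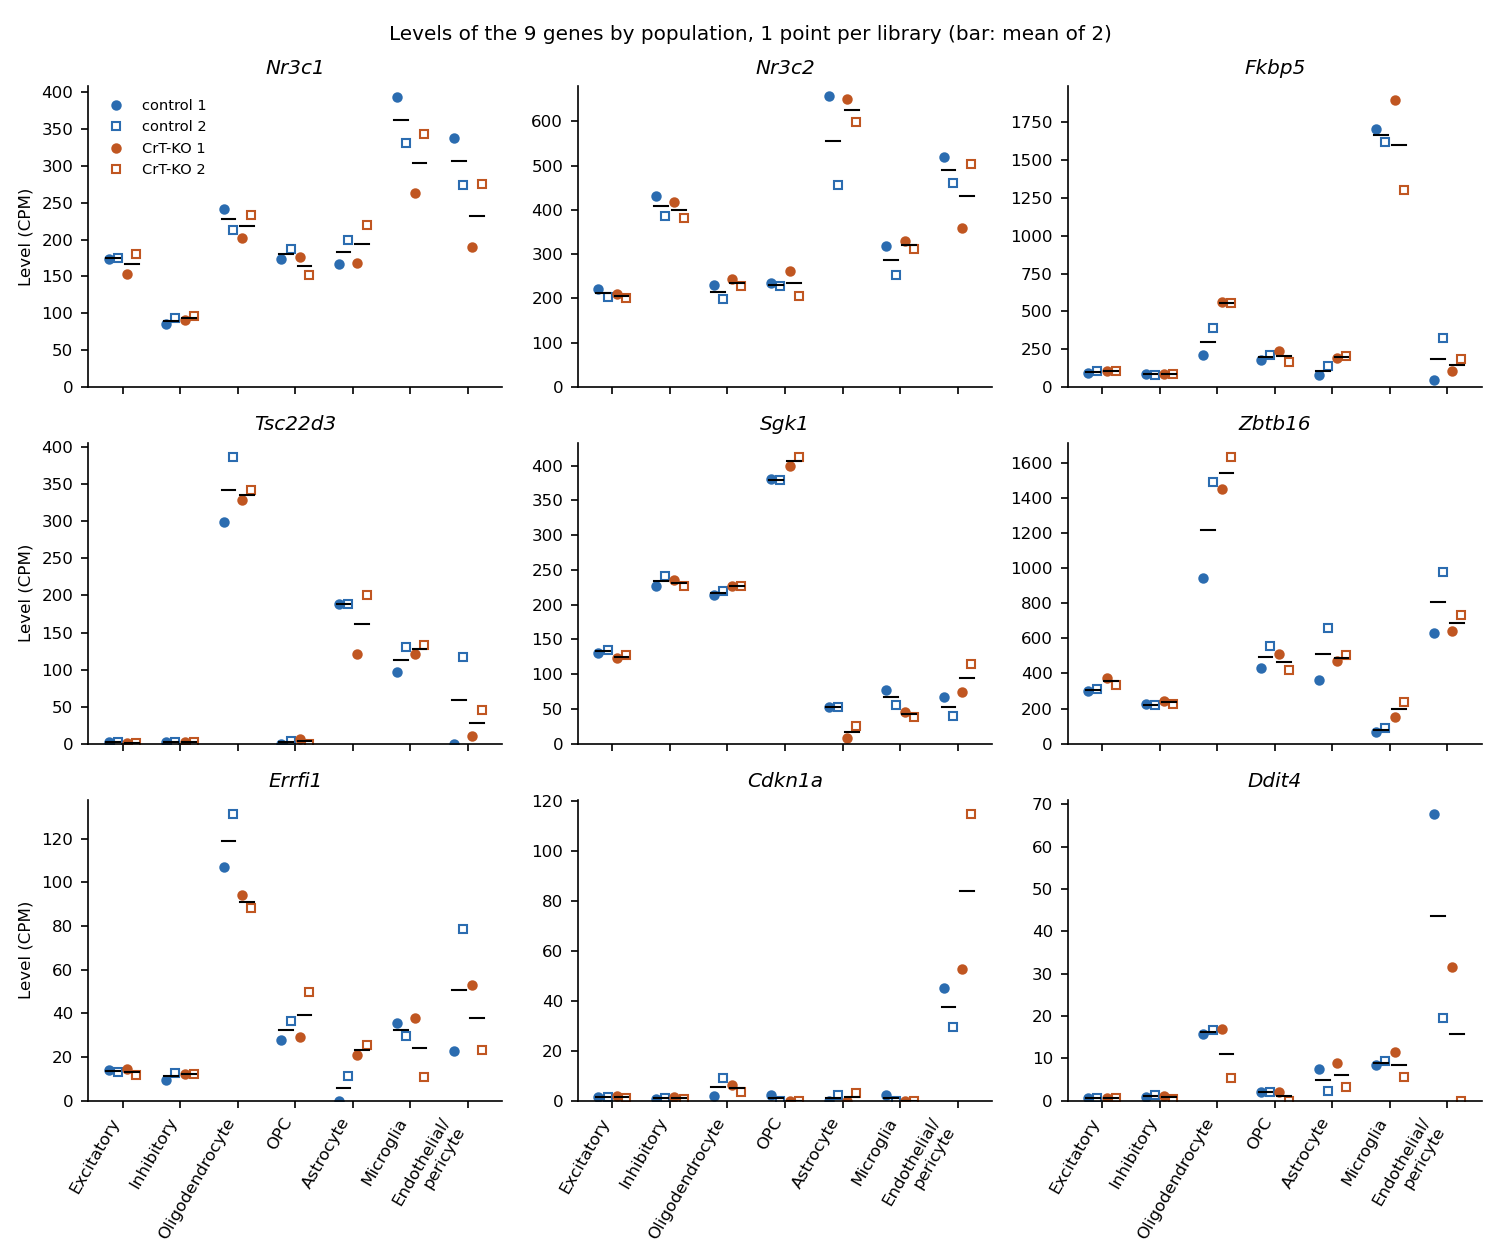
Level of each of the 9 genes (CPM) in the 7 populations, with 1 point per library, controls and CrT-KO marked apart. Fkbp5 in microglia (1305 to 1898 CPM) and Zbtb16 in oligodendrocytes (944 to 1634 CPM) stand out, and Tsc22d3 stays near 2 CPM in both neuronal populations.

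Fkbp5 peaked in microglia, which had a mean of 1633 CPM (range 1305 to 1898), and no other population overlapped them. Oligodendrocytes followed with 428 CPM, with a wide range from 209 to 563 that overlapped OPCs (198). Endothelial cells and pericytes (164), astrocytes (152) and excitatory neurons (103) overlapped in turn, and inhibitory neurons were lowest (86.0 CPM, range 81.1 to 88.2). Among neurons, means ran from 142 CPM in layer 5 extratelencephalic neurons to 33.2 CPM in PV interneurons.

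Tsc22d3 was highest in oligodendrocytes and lowest in neurons. Oligodendrocytes had 299 and 387 CPM in the controls and 328 and 342 CPM in CrT-KO, above every library of astrocytes (121 to 201) and microglia (96.2 to 133). Excitatory and inhibitory neurons had means of 1.66 and 2.13 CPM, on 39 to 55 and 22 to 36 UMIs per library, and the part of free RNA from other nuclei in these low levels was not tested. Endothelial cells and pericytes had a mean of 43.5 CPM, with a range from 0 to 118 that overlapped microglia. OPCs, the lineage from which oligodendrocytes form, had a mean of 2.52 CPM, close to the neurons, on at most 3 UMIs in any library.

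Sgk1 was highest in OPCs (393 CPM, range 379 to 413), and the next 3 populations, inhibitory neurons (233), oligodendrocytes (222) and excitatory neurons (129), were separated from each other without overlap. Microglia (54.3) and astrocytes (34.8) were lowest and rest on 21 to 37 and 3 to 23 UMIs per library. Among neurons, medium spiny neurons led (392 CPM, range 387 to 397), followed by VIP interneurons (298), while layer 6 intratelencephalic neurons had 13.6 CPM.

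Zbtb16 was highest in oligodendrocytes, with a mean of 1378 CPM, and lowest in microglia, with 137 CPM. Endothelial cells and pericytes (747), astrocytes (499) and OPCs (480.2) followed, each overlapping the population above it. Excitatory neurons (329, range 298 to 375) were clear of OPCs above and of inhibitory neurons (229.8, range 220 to 246) below, and the latter overlapped microglia. Neuronal subclasses spread far more widely than these population means. The inhibitory mean includes the medium spiny nuclei, whereas PV (308 CPM), SST, VIP and LAMP5 interneurons each had a mean above it. LAMP5 interneurons had 915 CPM (815 to 1063) and VIP interneurons 787 (752 to 812), each clear of the next subclass. SST interneurons had 236 CPM, layer 6 intratelencephalic neurons 115, and medium spiny neurons 18.5 (12.6 to 27.7), again each clear of the next.

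**Figure D2:**
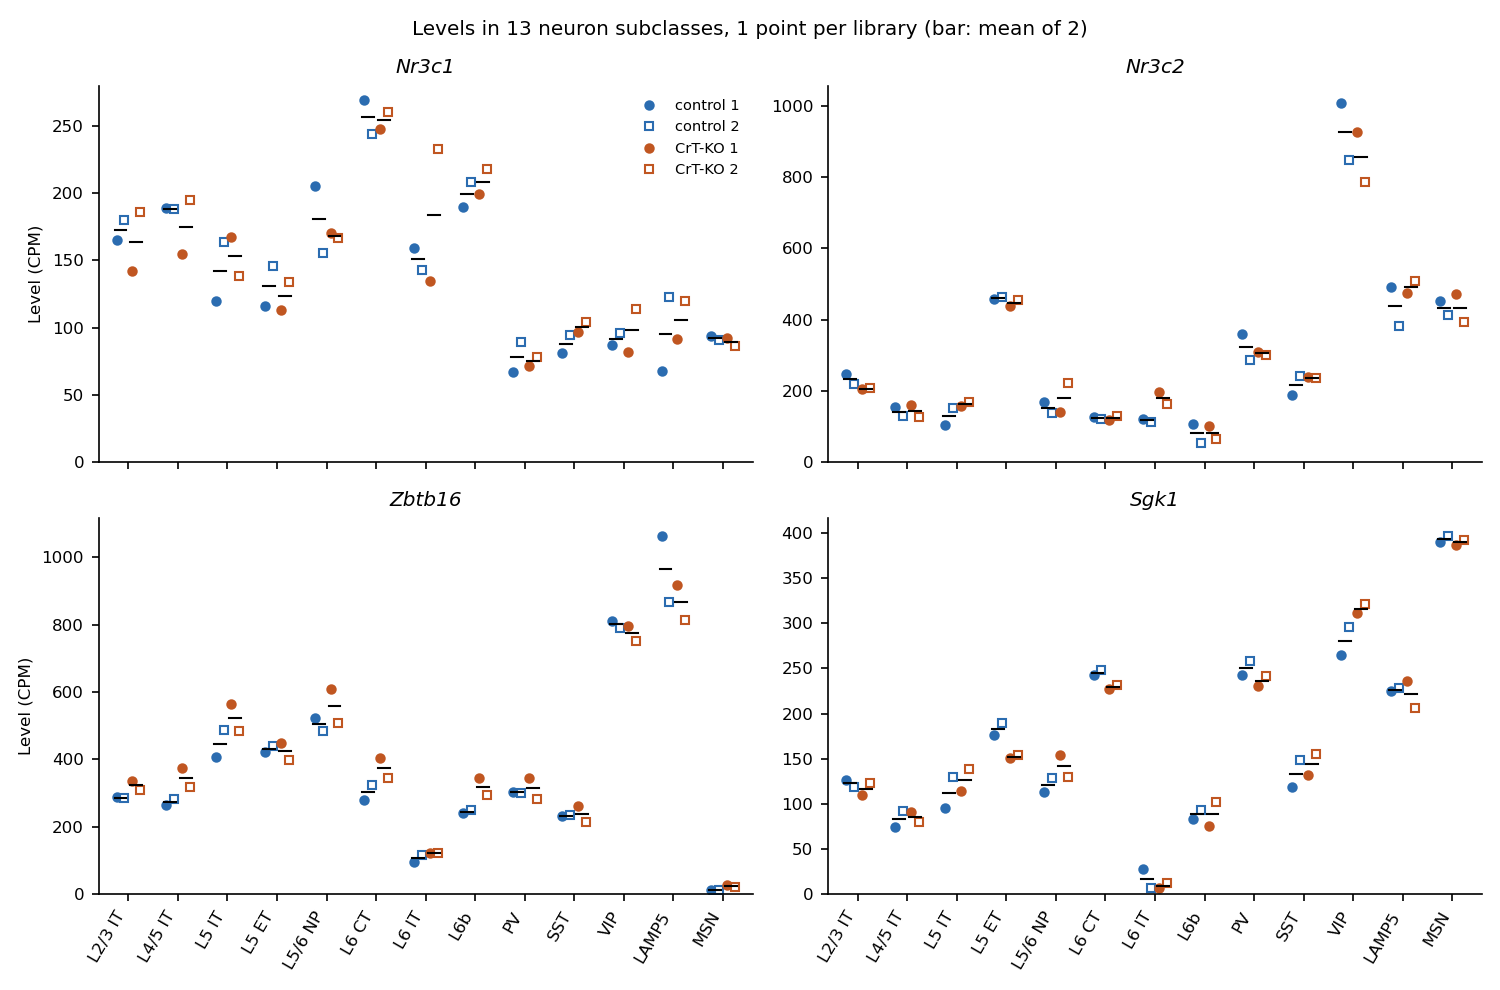
Level of Nr3c1, Nr3c2, Zbtb16 and Sgk1 (CPM) in the 13 neuronal subclasses, with 1 point per library. VIP interneurons lead for Nr3c2, LAMP5 interneurons for Zbtb16, layer 6 corticothalamic neurons for Nr3c1 and medium spiny neurons for Sgk1, while medium spiny neurons are lowest for Zbtb16.

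The 3 remaining genes were sparse. Errfi1 was highest in oligodendrocytes (105 CPM, range 88.0 to 131) without overlap with any other population, and 11.7 to 44.1 CPM elsewhere. Cdkn1a had 269 UMIs over all named nuclei, and its mean of 60.5 CPM in endothelial cells and pericytes rests on 2, 3, 5 and 5 UMIs. Ddit4 had 250 UMIs and was highest in endothelial cells and pericytes (29.7 CPM, range 0 to 67.7), which overlapped oligodendrocytes (13.7), with under 1 CPM in both neuronal populations. Averaging nuclei with equal weight in place of summing their UMIs left the highest and the lowest population of all 9 genes where they were.

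The genotype comparison asked in which cell types these transcripts differed between CrT-KO and control animals. For each population the UMIs of a library were added up, and all genes were fitted with the quasi-likelihood test of edgeR, with p-values adjusted by the Benjamini-Hochberg method over all genes tested and called at an adjusted p under 0.1. Such p-values rest on the libraries of 2 animals per group, with the spread of each gene moderated by that of all genes tested. Of 63 pairs of gene and population, 50 had enough UMIs to be tested, and 2 were called: Fkbp5 in oligodendrocytes and Zbtb16 in microglia. Both were higher in CrT-KO. None of the 9 genes tested was called in excitatory neurons, where 0.103% of all genes were called, none of 9 in inhibitory neurons (0.0774% of all genes), none of 6 in OPCs (0.0340%), none of 6 in astrocytes (0.0202%) and none of 4 in endothelial cells and pericytes (0.00%, with 85 genes at an unadjusted p under 0.05). The call in oligodendrocytes was 1 of 9 genes tested against 0.525% of all genes, and the call in microglia 1 of 7 against 0.0411%, and nothing is read from these shares because the genes were selected on results of the same contrast. The median log2 fold change of the genes tested was 0.00 in excitatory neurons, 0.08 in inhibitory neurons, -0.06 in oligodendrocytes, 0.06 in OPCs, -0.06 in astrocytes, -0.06 in microglia and -0.36 in endothelial cells and pericytes, where all 4 genes tested had a fitted value below 0, while the median of all genes lay between -0.01 and 0.01 in each population. In 13 of the 50 tested pairs both CrT-KO libraries lay on one side of both controls, 8 above and 5 below, while over all genes tested 35.7% of pairs did so.

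Fkbp5 in oligodendrocytes had 209 and 389.9 CPM in the controls (317 and 820 UMIs) and 563 and 552 CPM in CrT-KO (898 and 947 UMIs). Both CrT-KO libraries lay above both controls, and the controls differed from each other more than the CrT-KO libraries did. The mean was 299 ± 128 CPM (SD, n = 2) in controls and 557 ± 7.66 CPM (n = 2) in CrT-KO, which is 0.86 ± 0.16 (SE) as a log2 fold change, with an adjusted p of 0.0073 by edgeR. Without the low control 1 library the log2 fold change was 0.49 with an adjusted p of 0.14 (edgeR), and over all leave-outs it ran from 0.49 to 1.40. DESeq2 gave 0.88 with an adjusted p of 1.00. Both oligodendrocyte clusters showed the same order of libraries, with 207, 398, 567 and 565 CPM in the larger (4047 nuclei, control 1, control 2, CrT-KO 1, CrT-KO 2) and 213, 368, 549 and 501 CPM in the smaller (918 nuclei).

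A UMI of Fkbp5 was seen in 22.1% and 38.5% of control oligodendrocyte nuclei and in 51.2% and 45.2% of CrT-KO nuclei, at median depths of 1209 to 1406 UMIs. With every nucleus thinned to 500 UMIs, which left none out, the shares were 9.89% and 15.95% against 22.6% and 22.6%. Inhibitory neurons, the lowest population for this gene, had 3.68% to 4.89% after thinning, at median depths of 5259 to 6014 UMIs. Without thinning they had 30.3% to 34.7%, between control 1 and control 2 oligodendrocytes, so the thinned shares of these deeper nuclei set no floor. An exact two-sided permutation test of the oligodendrocyte shares, which has 6 ways to assign the libraries, gave p = 0.333, the smallest that it allows. The 22 microglial markers, from the population with the highest Fkbp5 level, summed to 237 and 227 CPM in control oligodendrocytes and 196 and 214 CPM in CrT-KO, beside 19187 to 20747 CPM in microglia, with both CrT-KO libraries below both controls. Among oligodendrocyte nuclei with no UMI of these markers, Fkbp5 had 204, 385, 553 and 557 CPM in control 1, control 2, CrT-KO 1 and CrT-KO 2. The summed excitatory markers were 1837 and 1845 CPM in the control pair and 2297 and 1905 CPM in the CrT-KO pair, and the oligodendrocyte markers 23376 and 21500 against 20794 and 20521 CPM. The part of these differences in the result was not tested.

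Zbtb16 in microglia had 66.9 and 88.3 CPM in the controls (32 and 57 UMIs) and 154 and 239 CPM in CrT-KO (94 and 131 UMIs). The groups did not overlap, and here it was the CrT-KO libraries that differed most from each other. The mean was 77.6 ± 15.1 CPM (SD, n = 2) in controls and 196 ± 60.2 CPM (n = 2) in CrT-KO, which is 1.30 ± 0.23 (SE) as a log2 fold change, with an adjusted p of 0.052 by edgeR. Leaving out CrT-KO 2 gave 0.95 with an adjusted p of 0.14 (edgeR), DESeq2 gave 1.33 with an adjusted p of 0.33, and keeping the doublets gave 0.57 with an adjusted p of 0.62 (edgeR). With the doublets kept the levels were 160.1, 182, 203 and 298 CPM in control 1, control 2, CrT-KO 1 and CrT-KO 2.

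**Figure D3:**
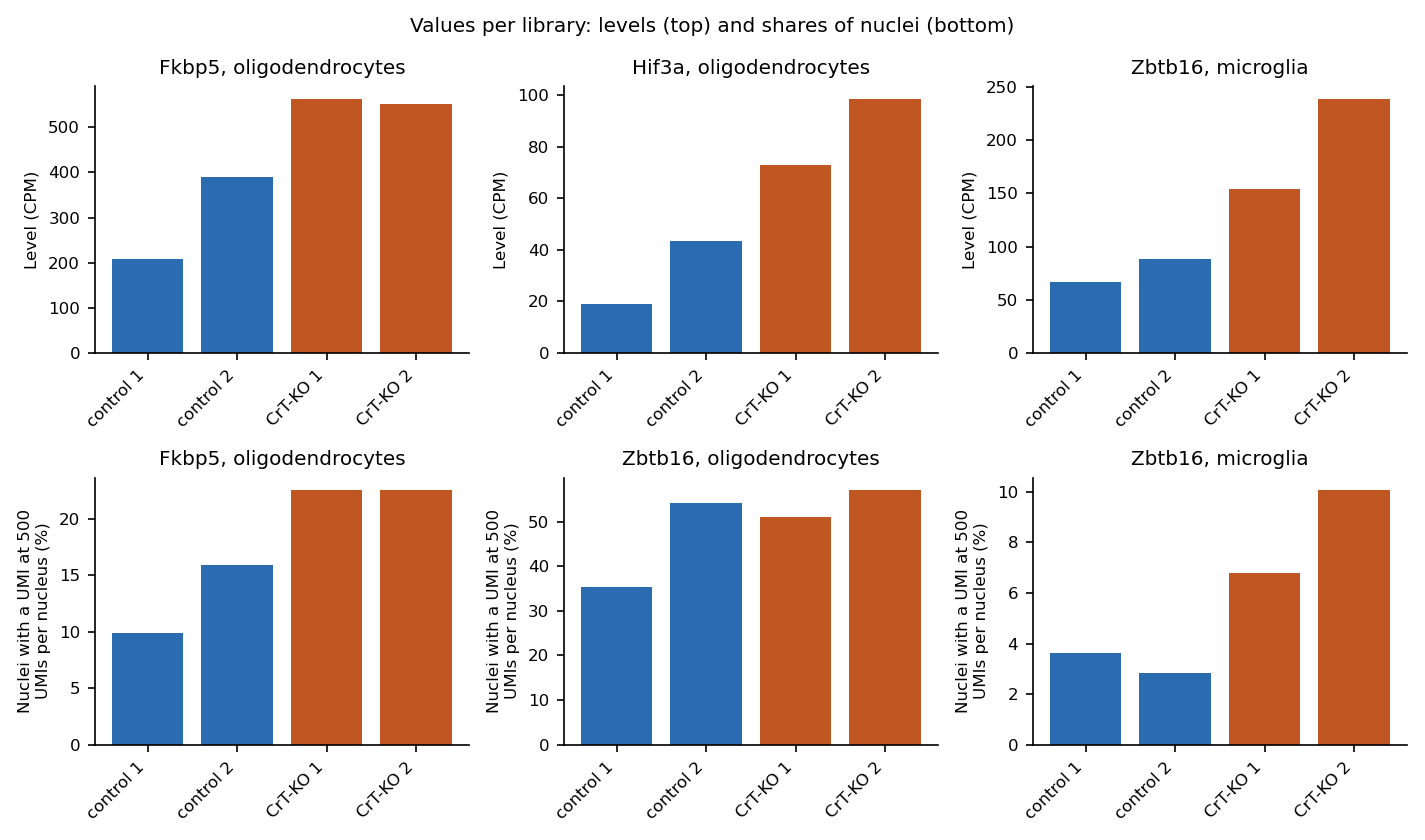
Top, level (CPM) of Fkbp5 and Hif3a in oligodendrocytes and of Zbtb16 in microglia in each of the 4 libraries. Bottom, percent of nuclei with a UMI after thinning to 500 UMIs for Fkbp5 in oligodendrocytes, Zbtb16 in oligodendrocytes and Zbtb16 in microglia. CrT-KO libraries lie above both controls in all panels except Zbtb16 in oligodendrocytes, where control 1 (35.4%) stands apart below the other libraries (51.0% to 57.0%).

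The share of microglial nuclei with a UMI of Zbtb16 was 6.21% and 7.12% for the control pair against 12.9% and 17.2% for the CrT-KO pair, at median depths of 881 to 1032 UMIs. Thinned to 500 UMIs the shares were 3.64% and 2.81% against 6.78% and 10.1%, and the two-sided exact permutation test gave p = 0.333, its smallest value. Medium spiny neurons, the neurons with the least Zbtb16, had thinned shares of 0.630% to 1.87% at median depths of 4547 to 5818 UMIs, below every microglial library. Without thinning they had 4.16% and 5.88% in the control pair and 9.02% and 7.77% in the CrT-KO pair, overlapping the microglial libraries. Thinning acts more strongly on these deeper nuclei, so their thinned shares set no floor. The part of free RNA from other nuclei in the microglial shares was not tested. The microglia consisted of 2 clusters. In the larger (2159 nuclei) Zbtb16 had 42.8, 63.4, 140.0 and 229 CPM in control 1, control 2, CrT-KO 1 and CrT-KO 2, and the fit on this cluster gave a log2 fold change of 1.75 ± 0.26 (SE), with an adjusted p of 0.011 by edgeR. The smaller (73 nuclei), led by Mrc1, F13a1 and Cd163, genes of macrophages at brain borders, had 378, 595, 605 and 586 CPM on 9 to 18 UMIs per library.

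Oligodendrocytes had more Zbtb16 than microglia, and the level of their markers in the microglial nuclei is therefore given beside the result. The 18 oligodendrocyte markers, 16 of them with a UMI in every library, summed to 477 and 579 CPM in control microglia and 471 and 432 CPM in CrT-KO, the last 2 being the lowest. In microglial nuclei with no UMI of these markers (301 to 399 per library) Zbtb16 had 73.8 and 86.0 CPM in the control pair and 176 and 224 CPM in the CrT-KO pair. The 18 excitatory markers summed to 2680 and 3003 CPM in the control pair and 3185 and 3007 CPM in the CrT-KO pair, with both CrT-KO libraries above both controls, and the part of RNA from either cell type in the result was not tested. Other populations showed smaller differences of Zbtb16. Excitatory neurons had 298 and 309 CPM in the control pair and 375 and 334 CPM in the CrT-KO pair (0.28 ± 0.07 SE on the log2 scale, adjusted p = 0.33 by edgeR), and inhibitory neurons 226 and 220 against 246 and 228 CPM (0.11 ± 0.08 SE, adjusted p = 0.99 by edgeR), with no overlap in either. Medium spiny nuclei, low in Zbtb16, were 625 of 2109 and 595 of 2231 inhibitory nuclei in the control pair. In the CrT-KO pair they were 643 of 2344 and 476 of 1944. The part of these shares in the inhibitory difference was not tested. In oligodendrocytes the groups overlapped, with 944 and 1487 CPM in the control pair and 1448 and 1634 CPM in the CrT-KO pair (0.32 ± 0.14 SE, adjusted p = 0.60 by edgeR).

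Whether the genotype effect itself differed between populations was fitted as an interaction, with each library as a block. Of 62 such fits for the 9 genes 4 were called, while over all genes 0.0926% were. Some fits join a population in which the gene was too sparse to be tested alone, as for Cdkn1a in microglia minus excitatory neurons (-5.96, SE 6.09). Such fits could hardly be called, and they count in both shares. The genes were also selected on results of these data, so nothing is read from these counts. The log2 fold change of Fkbp5 was larger in oligodendrocytes than in excitatory neurons by 0.77 (SE 0.14, adjusted p = 0.0034 by edgeR) and larger than in microglia by 0.99 (SE 0.15, adjusted p = 2.8e-07 by edgeR). In microglia, where Fkbp5 was most abundant, its level was 1706 and 1622 CPM in the control pair and 1898 and 1305 CPM in the CrT-KO pair, with overlap. The log2 fold change of Zbtb16 was larger in microglia than in excitatory neurons by 1.01 (SE 0.21, adjusted p = 0.0041 by edgeR), and smaller in oligodendrocytes than in microglia by 0.99 (-0.99 ± 0.22 SE, adjusted p = 0.012 by edgeR). With each library left out in turn, the first of these differences was called in 4 of 4 fits and each of the others in 2 of 4.

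**Figure D4:**
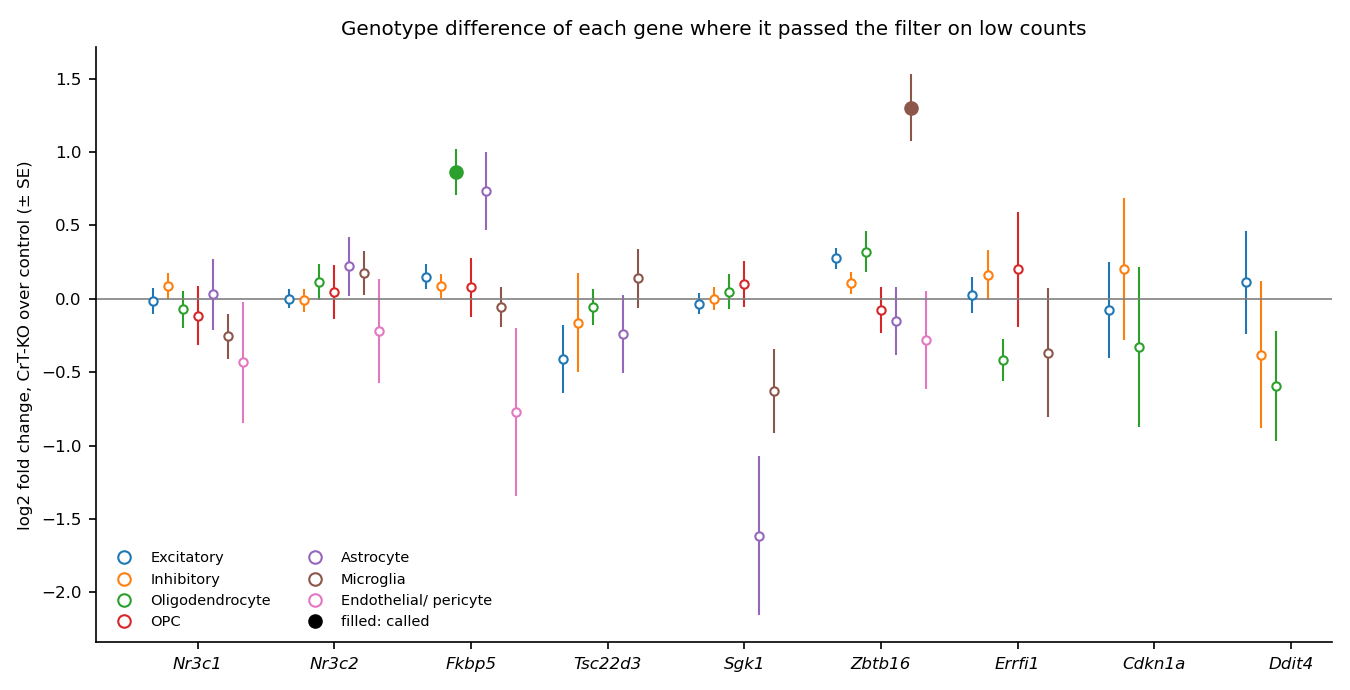
Log2 fold change of CrT-KO against control for each gene in each population in which it was tested, with bars of 1 SE. The called pairs are Fkbp5 in oligodendrocytes (0.86) and Zbtb16 in microglia (1.30).

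The receptors themselves showed no call. The log2 fold change of Nr3c1 ran from -0.43 (SE 0.41) in endothelial cells and pericytes to 0.08 (SE 0.09) in inhibitory neurons, and that of Nr3c2 from -0.22 (SE 0.36) to 0.22 (SE 0.20, astrocytes), and in all 7 populations the libraries of the genotypes overlapped for both genes. In excitatory neurons Nr3c2 had a log2 fold change of 0.00 (SE 0.07) and Nr3c1 -0.01 (SE 0.09). Under 14 alternative ways of processing, the first ran from -0.16 to 0.04 and the second from -0.15 to 0.11. In oligodendrocytes Nr3c1 had 241 and 213 CPM in the control pair and 202 and 234 CPM in the CrT-KO pair (log2 fold change -0.07, SE 0.12). In microglia it had 393 and 331 CPM in the control pair and 263 and 343 CPM in the CrT-KO pair (-0.26, SE 0.15).

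No other responsive gene of the 9 was called in oligodendrocytes. There Tsc22d3 had a log2 fold change of -0.06 (SE 0.12), Sgk1 of 0.05 (SE 0.12, 214 and 219 against 227 and 227 CPM), Ddit4 of -0.59 (SE 0.38), Cdkn1a of -0.33 (SE 0.54) and Errfi1 of -0.42 (SE 0.14). For Errfi1 the CrT-KO libraries (94.0 and 88.0 CPM) lay below both controls (107 and 131), with an edgeR adjusted p of 0.36. Whether these log2 fold changes differ from that of Fkbp5 was not tested. In astrocytes Fkbp5 had 75.6 and 136 CPM in the control pair and 192 and 204 CPM in the CrT-KO pair (0.73 ± 0.27 SE on the log2 scale, adjusted p = 1.00 by edgeR), on 10 to 65 UMIs. Sgk1 in the same nuclei had 52.9 and 52.1 CPM against 8.88 and 25.5 CPM (-1.61 ± 0.54 SE, adjusted p = 1.00 by edgeR), on 3 to 23 UMIs. These astrocyte values rest on 60 to 171 nuclei per library. Sgk1 in microglia also had both CrT-KO libraries below, with 77.4 and 55.8 against 45.8 and 38.3 CPM (-0.63 ± 0.29 SE, adjusted p = 0.88 by edgeR).

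Single libraries stood apart for several of these genes. Control 1 was the lowest library for Zbtb16 in 5 of 7 populations and for Fkbp5 in 4 of 7, among them oligodendrocytes for both. It was also the lowest in 4 of 7 for Errfi1 and for Tsc22d3, the latter with a tie in OPCs. For Nr3c2, in contrast, it was the highest in 4 of 7. CrT-KO 2 was the lowest for Ddit4 in 6 of 7 populations, with 5.25 CPM in oligodendrocytes against 15.8 to 16.9 CPM in the other 3 libraries.

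The neurons were also split into 13 subclasses, and part of the excitatory and of the inhibitory nuclei fell in none of them. These subclasses gave 78 testable pairs and 1 call, Zbtb16 in medium spiny neurons, while 0.212% of all genes were called over these fits. It had 12.6 and 12.8 CPM in control animals (38 and 46 UMIs) and 27.7 and 20.8 CPM in CrT-KO (108 and 56 UMIs), which is 0.96 ± 0.23 (SE) as a log2 fold change, with an adjusted p of 0.066 by edgeR. This is the subclass with the lowest level of the gene, and the 18 excitatory markers in it summed to 4505 and 4766 CPM in the control pair and 4819 and 4814 CPM in the CrT-KO pair, which leaves the part of RNA from other neurons not tested. Of the 4 fits with a library left out, only that without CrT-KO 2 made the call (adjusted p = 0.015 by edgeR), while those without control 1, control 2 or CrT-KO 1 gave adjusted p-values of 0.77 to 0.96, and DESeq2 made no call. The fitted log2 fold change of Zbtb16 was above 0 in 11 of 13 subclasses, with 0.37 (SE 0.10, adjusted p = 0.10 by edgeR) in layer 4/5 and 0.34 (SE 0.10, adjusted p = 0.37 by edgeR) in layer 6 corticothalamic neurons, and near 0 in layer 5 extratelencephalic neurons (0.01, SE 0.10). In the subclasses with the most Zbtb16 it was -0.14 (SE 0.13, LAMP5) and -0.06 (SE 0.11, VIP).

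Wider lists place the 9 genes among others of the pathway. Of 29 further glucocorticoid-responsive genes, 16 were tested in oligodendrocytes and 1 was called (against 0.525% of all genes there), Hif3a, which encodes a hypoxia-inducible factor subunit. It had 19.1 and 43.3 CPM in control libraries (29 and 91 UMIs) and 72.7 and 98.5 CPM in CrT-KO (116 and 169 UMIs), which is 1.38 ± 0.22 (SE) as a log2 fold change, with an adjusted p of 0.0022 by edgeR. All fits with a library left out called it, at 0.97 to 2.15, and DESeq2 did not. Its libraries were also apart in the same direction in OPCs (44.9 and 57.7 against 99.4 and 82.5 CPM, 0.84, adjusted p = 0.88 by edgeR) and microglia (8.36 and 12.4 against 21.3 and 23.7 CPM, 1.06, adjusted p = 0.87 by edgeR), and overlapped in astrocytes, where Hif3a was most abundant (219 to 308 CPM). None of the 29 was called in another population, with 22 tested in excitatory neurons, and their median log2 fold change in oligodendrocytes was -0.01, beside 0.00 over all genes.

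Of 15 receptor chaperones, 12 of the 13 tested in excitatory neurons, 11 of 13 in inhibitory neurons and 10 of 11 in oligodendrocytes had a fitted log2 fold change below 0, with medians of -0.26, -0.24 and -0.29 beside medians near 0 over all genes. Of those tested 1 was called, in inhibitory neurons, where 0.0774% of all genes were: Hsp90ab1, an Hsp90 chaperone of the receptor, fell from 38.7 and 37.1 CPM in controls to 25.2 and 18.8 CPM in CrT-KO (-0.76 ± 0.12 SE on the log2 scale, adjusted p = 0.020 by edgeR). With a library left out it was called each time, at -0.96 to -0.60, and DESeq2 called it too, while the largest inhibitory cluster alone gave -0.66 with an adjusted p of 0.34 (edgeR). The largest inhibitory cluster (2204 nuclei) has Drd2, Rarb, Adora2a and Rgs9, markers of medium spiny neurons, among its top genes. Its value therefore does not describe cortical interneurons. Among the subclasses, with 0.212% of all genes called over these fits, Hspa8, a constitutive Hsp70 chaperone, fell in layer 4/5 neurons (-1.18 ± 0.25 SE, adjusted p = 0.022 by edgeR) and layer 2/3 neurons (-0.83 ± 0.20 SE, adjusted p = 0.095 by edgeR). The layer 4/5 call held with each library left out, and the layer 2/3 call was lost without control 1, control 2 or CrT-KO 2 (adjusted p = 0.15 to 0.23 by edgeR). None of 12 receptor coregulators and none of 9 genes of steroid metabolism and corticotropin-releasing hormone signalling was called in any population. The same held for 18 immediate early genes, of which 15 had a fitted value below 0 in excitatory neurons (median -0.24).

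The genes whose control level followed Zbtb16 most closely across the 7 populations, by Pearson r of log2(CPM + 1) among 12711 genes, were Ldlrad3 (0.979), Dmpk (0.978), Thra (0.976), Tmtc2 (0.962) and Cadm4 (0.959). For Fkbp5 they were Sft2d1 (0.997), Heatr5a (0.995), Gpatch2l (0.992), Pwwp2a (0.990) and Terf1 (0.985). Each r rests on 7 points that share libraries, and for Fkbp5 mainly on the single high value of microglia. These are the top ranks of a large set and are given as a description.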

How the data were processed

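The authors counted 10x Genomics 3′ v2 libraries of sorted nuclei with Cell Ranger 3.1.0 (per the submitters' processing notes) on a pre-mRNA GRCm38 (mm10) reference in which whole gene bodies count as exons. The deposited values are raw UMI counts per gene and nucleus in the filtered matrices, and the cell assignments of the study were not among the files used here. Nuclei were scored for doublets, normalised to 10000 UMIs and clustered with scanpy 1.11.5 (3000 variable genes, 30 principal components, 20 neighbours, Leiden resolution 1), with the 9 genes left out of the variable genes. Clusters were named from fixed marker lists. The thresholds for naming (20 nuclei and 3 detected markers, and for non-neuronal populations and neuronal subclasses also a score of at least 1) were set after the matrices had been seen, and rebuilt names can differ from those of the study.

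UMI counts were summed per library and population and fitted in edgeR 4.0.16 (R 4.3.3) by the quasi-likelihood test with TMM factors, after filterByExpr (minimum count 10, minimum total 15), with no covariate and each population on its own. The study tested nuclei, whereas libraries were the replicates here. The SE is the log2 fold change divided by the square root of F. Differences between populations were interactions with the library as a block. Shares were thinned to 500 UMIs, or 300 as an alternative. The UMI numbers beside each level set its counting error. The fits were tested on simulated counts. DESeq2 1.42.0, plain library sizes, no filter, a replicate block, each library left out, other clusterings, doublets kept, deeper nuclei and the largest cluster only were tried as alternatives.

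The genes and the wider lists were chosen with earlier results of these data known. Named genes are all 9, the called members of the wider lists, Slc6a8 as the check of the labels, and the 5 genes most like Zbtb16 and Fkbp5 among those with at least 5 CPM in a population.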

Additional observations from a re-analysis of the deposited data

Results flagged for a closer look

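For 4 results the fitted difference of the genotype effect between cell types was called (edgeR, library as a block). The genes were selected on results of the same contrast, so these calls are given as a description. For Fkbp5 the log2 fold change in oligodendrocytes exceeded that in excitatory neurons by 0.77 and that in microglia by 0.99. For Zbtb16 the log2 fold change in microglia exceeded that in excitatory neurons by 1.01, and the difference of oligodendrocytes minus microglia was -0.99. The Fkbp5 difference against excitatory neurons was called with any 1 library left out. The Fkbp5 difference against microglia was not called without control 1 (0.56, adjusted p = 0.43) or without CrT-KO 2 (0.70, adjusted p = 0.30). The Zbtb16 difference against excitatory neurons was not called without control 1 (0.93, adjusted p = 0.82) or without CrT-KO 2 (0.66, adjusted p = 0.89), and that against oligodendrocytes not without control 2 (-0.85, adjusted p = 0.49) or CrT-KO 2 (-0.79, adjusted p = 0.83), all by edgeR. All 4 rest on 2 animals per genotype and on genes chosen with earlier results known.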

How the results depend on the processing

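Of 16 alternatives each, Zbtb16 in microglia and Fkbp5 in oligodendrocytes kept their sign in all 16, the first called in 12 and the second in 13. Zbtb16 in microglia was not called by DESeq2 (1.33), with doublets kept (0.57), at an adjusted p under 0.05 (1.30) or without CrT-KO 2 (0.95), and ran from 0.95 to 1.60 with a library left out. Fkbp5 in oligodendrocytes was not called by DESeq2 (0.88), with clusters named by their best score alone (0.89, an alternative chosen after seeing the data) or without control 1 (0.49), and ran from 0.49 to 1.40 with a library left out. The number of the 9 genes called in oligodendrocytes (1) became 0 by DESeq2 and by best score alone, and 0 to 2 with a library left out (0 without control 1, 2 without control 2). In microglia (1) it became 0 by DESeq2, with doublets kept and at 0.05, and 0 to 1 with a library left out (0 without CrT-KO 2). In inhibitory neurons (0) it became 1 in the largest cluster only, where Zbtb16 had 1.29. The top genes of that cluster include markers of medium spiny neurons, so this is not a result separate from the medium spiny subclass. Over the 13 subclasses (1) it became 0 by DESeq2 and at 0.05, and 0 to 4 with a library left out. The differences between populations ran, with a library left out, from 0.47 to 1.15 (Fkbp5, oligodendrocytes minus excitatory), 0.56 to 1.504 (Fkbp5, oligodendrocytes minus microglia), 0.66 to 1.40 (Zbtb16, microglia minus excitatory) and -1.21 to -0.79 (Zbtb16, oligodendrocytes minus microglia). Of the other 48 pairs, 45 were called in no alternative and 15 kept their sign in all. The causes were not tested.

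Replicate numbers are shared between the groups, but 2 pairs do not establish a pairing: the deviations of same-numbered libraries correlated at 0.17 in excitatory neurons, 0.14 in inhibitory neurons and 0.02 to 0.10 elsewhere. With a replicate block 1 of the 9 genes was called in excitatory neurons, 2 in oligodendrocytes and 5 over the subclasses (Zbtb16 in medium spiny, layer 4/5, layer 6 corticothalamic and layer 2/3 neurons at 0.95, 0.37, 0.34 and 0.22, and Fkbp5 in layer 6 corticothalamic neurons at 0.33), with Zbtb16 at 1.34 in microglia and Fkbp5 at 0.90 in oligodendrocytes. Over all genes the replicate block called 159 in excitatory neurons (14 without it), 124 in inhibitory neurons (10), 187 in oligodendrocytes (47) and 9 in OPCs (2). DESeq2 called 71, 5, 0 and 0 in these and 0 in microglia (3), although an unadjusted p under 0.05 was reached by 162 genes in oligodendrocytes, 33 in OPCs and 53 in microglia. With no filter on low counts 3, 49, 85 and 6 were called, and 11 in microglia. With the largest cluster only the counts were 193 in excitatory neurons, 22 in oligodendrocytes and 56 in endothelial cells and pericytes (0). With doublets kept they were 42 in excitatory neurons and 9 in OPCs, by best score alone 29 in excitatory neurons, 15 in oligodendrocytes and 11 in astrocytes (1). With a library left out, the counts ran from 3 to 31 in excitatory neurons, 36 to 68 in inhibitory neurons, 36 to 92 in oligodendrocytes and 5 to 17 in microglia. Depth limits Cdkn1a and Ddit4, with under 300 UMIs each, and the astrocyte and endothelial values.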

Other observations

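Of the unnamed clusters given here, the first held some of the highest control levels of Fkbp5 and Zbtb16, and the second did not. In a cluster of 39 nuclei led by Bnc2, Slc47a1 and Tbx15 (4 and 11 nuclei in the control libraries, 16 and 8 in CrT-KO), Fkbp5 had 3644 and 3008 CPM in controls and 1385 and 775 CPM in CrT-KO, on 28 to 100 UMIs, with both CrT-KO libraries below both controls, while Zbtb16 there had 3384 and 1438 against 1122 and 475 CPM. In a cluster of 158 nuclei led by Bcas1 and Gpr17, genes of newly forming oligodendrocytes, Zbtb16 had 160.3 CPM in control 1 and 449, 551 and 543 CPM in control 2, CrT-KO 1 and CrT-KO 2, and Fkbp5 74.4 CPM against 197, 254 and 176 CPM. The library that was low for both genes in mature oligodendrocytes was thus also the low one there. These values were chosen after they were seen, were not tested and have no explanation here.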
